A study of Mus musculus with 6 samples.

Results

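Protein arginine methyltransferases (Prmt genes) were followed in bulk RNA-seq of mouse nerve tissue. By the labels and the protocol, the mice carried floxed alleles of the neurofibromatosis gene Nf1 and a Cre gene of the Schwann cell lineage. The second group also carried floxed alleles of the transcription factors Runx1 and Runx3. The 8 genes Prmt1, Prmt2, Prmt3, Carm1, Prmt5, Prmt6, Prmt7 and Prmt8 were taken by symbol from 24062 rows in the count data, and all 8 were among the 15652 genes tested. They were chosen by a family name and by the Prmt8 difference seen in earlier results of these same 6 libraries, so every level and fold change of the 8 is given here as a description, with no p-value.

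The study asked what Runx1 and Runx3 contribute to tumours that form when Schwann cell precursors lose Nf1. The first group held 3 libraries of genotype Nf1fl/fl;DhhCre, with dorsal root ganglion as the labelled tissue. The second held 3 libraries that carry the genotype label Rx1flfl;Rx3fl/fl;DhhCre and the tissue label neurofibroma tumor, and the extraction protocol adds Nf1fl/fl for this group too; these are called the libraries labelled dKO. All mice were of the strain C57BL/6-I129. DhhCre is expressed in the Schwann cell lineage, and which cells of these tissues had lost the floxed alleles was not measured here. The age of the mice was not given for these libraries, and the tissue labels differ between the groups together with the genotype, so tissue and genotype cannot be told apart. The extraction protocol names the tissue of both groups together as ganglia or tumours. Neuron markers were lower in the group labelled dorsal root ganglion than in the group labelled tumor (1433 to 2994 against 7135 to 16011 summed CPM). This is the reverse of the order that those tissue labels would give. Whether the tissue labels are right was not tested. The Results of the study call the first group tumours and the second ganglia or tumours, while its methods name ganglia or tumours for both. Legends in its supplement call both groups tumours.

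Total counts were 12439296 to 16682194 per library, and 3 counts correspond to 0.179 to 0.247 CPM, the count scaled to a common library size after TMM. Runx1 was at 131, 141 and 172 CPM in Nf1fl/fl;DhhCre tissue. In the other group it was at 84.0, 78.9 and 185 CPM, so replicate 3 labelled dKO was not lower. Runx3 was at 19.9, 15.1 and 29.9 CPM against 13.5, 10.3 and 12.1 CPM (adjusted p = 0.104, limma-voom). Directions below therefore rest on the labels. Transcripts of skeletal muscle stood apart in replicate 2 of each group, with summed levels of 2071 and 10731 CPM against 4.23 to 57.6 CPM in the other 4. Replicate 3 labelled dKO came from another sequencing run by its label, but the mouse number on its count data is that of replicate 2 in the labels, so either of these libraries may be the one from that run. Prmt8 is given without each of these libraries below, and the marker lists as ranges with 1 library left out in turn.

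Arginine methyltransferases transfer methyl groups from S-adenosylmethionine to arginine side chains of histones, RNA-binding proteins and signalling proteins. Type I enzymes (Prmt1, Prmt2, Prmt3, Carm1, Prmt6, Prmt8) form asymmetric dimethylarginine, the type II enzyme Prmt5 forms symmetric dimethylarginine, and the type III enzyme Prmt7 forms monomethylarginine. Most members are expressed in nearly all tissues. Prmt8 is the exception: it is the closest relative of Prmt1, is anchored to the plasma membrane through an N-terminal lipid, and is known chiefly from neurons.

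Prmt8 lies on mouse chromosome 6 at 127689011-127769472 (GRCm38, minus strand) and Prmt1 on chromosome 7 at 44975989-44986568 (minus strand). On the same build Prmt2 lies at chr10:76207222-76237865 (minus), Prmt3 at chr7:49778346-49858265 (plus), Carm1 at chr9:21546894-21592623 (plus), Prmt5 at chr14:54507187-54517525 (minus), Prmt6 at chr3:110246109-110250998 (minus) and Prmt7 at chr8:106210936-106252794 (plus). The Prmt1 and Prmt8 coding sequences matched at 75.1% of 1077 aligned bases, the highest identity among the member pairs that could be aligned, ahead of Prmt1 with Prmt3 (59.8%) and Prmt3 with Prmt8 (57.5%). No stretch of 50 bases in any member's annotated transcripts occurred in those of another member. The starts of this close pair are printed because the RNA levels of Prmt8 and Prmt1 parted widely in these libraries. Each window runs from 250 bases before to 50 bases after the RefSeq start on GRCm38.p6, 5′ to 3′ on the gene's strand, with every CG dinucleotide in capitals: chr6:127769106-127769405 for Prmt8 and chr7:44986371-44986670 for Prmt1.
Prmt8: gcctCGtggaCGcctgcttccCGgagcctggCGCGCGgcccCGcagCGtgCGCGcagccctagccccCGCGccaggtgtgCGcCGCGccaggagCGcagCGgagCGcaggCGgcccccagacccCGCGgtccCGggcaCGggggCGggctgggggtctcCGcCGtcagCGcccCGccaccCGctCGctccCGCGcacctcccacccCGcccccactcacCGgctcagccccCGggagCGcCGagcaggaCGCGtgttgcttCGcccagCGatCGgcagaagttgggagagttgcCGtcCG
Prmt1: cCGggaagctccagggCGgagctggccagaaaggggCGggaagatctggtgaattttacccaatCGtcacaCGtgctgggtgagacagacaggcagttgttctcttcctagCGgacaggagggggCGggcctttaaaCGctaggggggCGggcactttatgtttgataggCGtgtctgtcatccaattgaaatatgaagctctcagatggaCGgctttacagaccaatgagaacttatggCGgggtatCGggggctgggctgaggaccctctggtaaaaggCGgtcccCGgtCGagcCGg
The Prmt8 window held 44 CG dinucleotides at a GC content of 79.0%, and 97.8% of the 32851 promoter windows of the same length held fewer. The Prmt1 window held 17 at 57.7% GC, with 68.6% of windows below it. The median window held 7 and had 52.7% GC. The letters TGTGG, the core that RUNX proteins recognise, were searched on both strands and occurred in neither of the windows printed above. They occurred in 55.9% of all windows and in those of 4 of the 7 members with a RefSeq entry: Prmt2, Prmt3, Prmt6 and Prmt7. A match is only a run of letters, and its absence from 300 bases says nothing about binding elsewhere.

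Prmt8 was the member that differed most. It was at 2.22, 11.5 and 4.23 CPM in the 3 Nf1fl/fl;DhhCre libraries, from 32, 193 and 66 counts. In the libraries labelled dKO it was at 38.9, 45.6 and 94.3 CPM, from 488, 554 and 1429 counts. The lowest library labelled dKO was above the highest Nf1fl/fl;DhhCre library, and both groups were uneven, with 1 library well above the other 2 in each. The means were 5.98 ± 4.88 and 59.6 ± 30.3 CPM (SD, n = 3), a ratio of 9.96. The fitted log2 fold change was 3.49 (SE 0.64), the 97th highest of 15652 genes. On the log2 scale the replicate SD of Prmt8 was 1.19 in the Nf1fl/fl;DhhCre group and 0.68 in the group labelled dKO. The Y-linked gene Ddx3y was at 89.1 CPM in Nf1fl/fl;DhhCre replicate 2 and at 108 and 84.3 CPM in replicates 2 and 3 labelled dKO, and at 0 counts in the other 3 libraries, in which Xist was at 7903 to 12163 CPM. Within each group the libraries with Ddx3y had more Prmt8 than those without, and they numbered 1 of 3 in the first group and 2 of 3 in the second. The part of sex, which the labels do not give, in the Prmt8 values was not tested.

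The threshold for a call was an adjusted p below 0.05 with a change of more than 2-fold, and 13.4% of all genes tested passed it, 8.03% as higher and 5.36% as lower in the libraries labelled dKO. Among the 8 members 1 passed, Prmt8, as higher. Because Prmt8 was chosen on this contrast, nothing is read from that count. Leaving out Nf1fl/fl;DhhCre replicate 1 or replicate 3 ended the Prmt8 call, with log2 fold changes of 3.0 and 3.43. Leaving out any other library kept it, with 3.09 without replicate 3 labelled dKO, 3.63 without replicate 2 labelled dKO and 4.21 without Nf1fl/fl;DhhCre replicate 2.

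**Figure D1:**
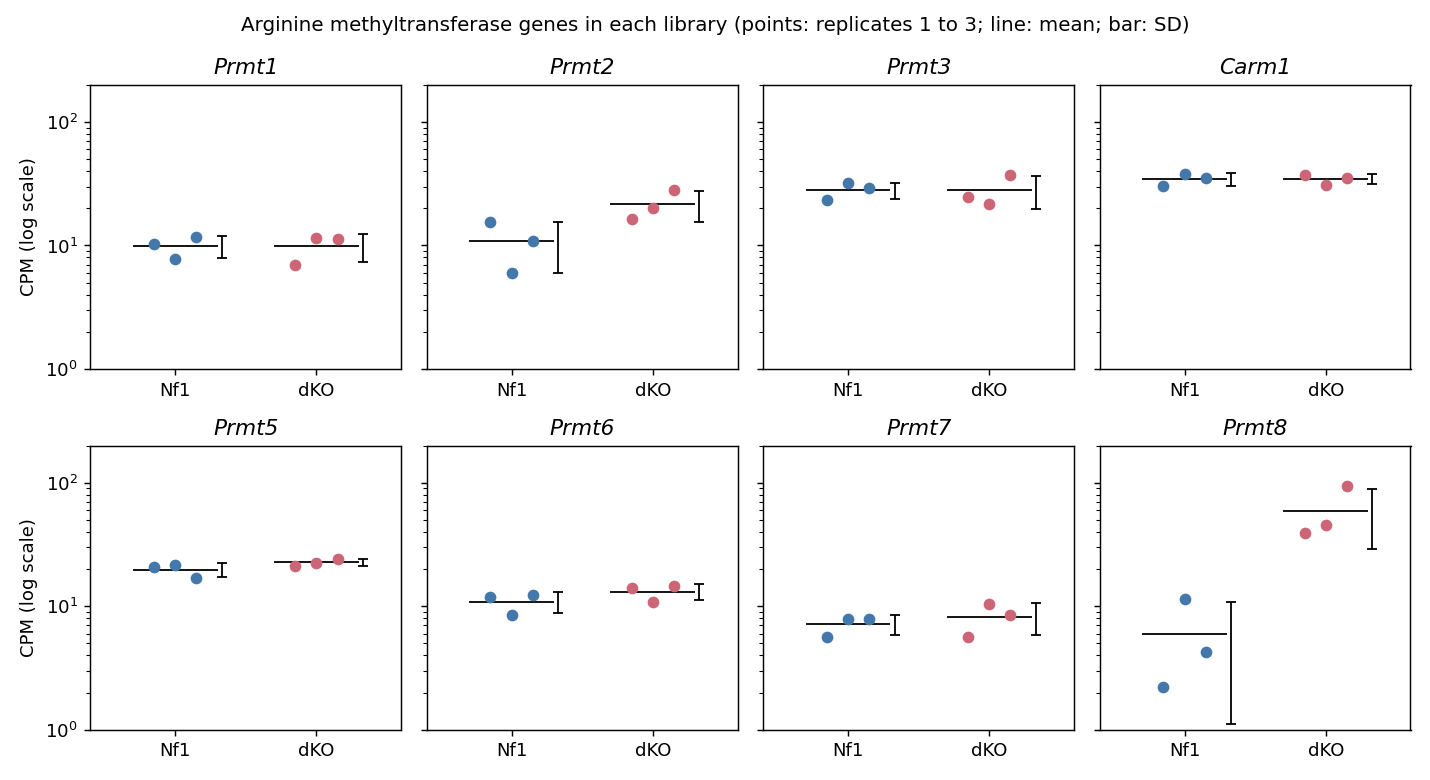
Level of each member in every library, in CPM on a log axis, with Nf1fl/fl;DhhCre libraries (Nf1) beside those labelled dKO; points are libraries, the horizontal line is the mean and the bar beside it the SD (n = 3). Prmt8 spans 2.22 to 11.5 CPM in the first group and 38.9 to 94.3 CPM in the second, whereas the points of Prmt1, Prmt3, Carm1, Prmt5, Prmt6 and Prmt7 overlap between groups.

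Prmt1, the main source of asymmetric dimethylarginine in most cells, was at 10.3, 7.74 and 11.6 CPM against 7.01, 11.4 and 11.3 CPM in the libraries labelled dKO. The groups overlapped over most of their range. The means were 9.87 ± 1.96 and 9.91 ± 2.51 CPM (SD, n = 3), with a log2 fold change of 0.01 (SE 0.28), so the closest relative of Prmt8 showed no difference beyond the spread between libraries.

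Prmt2, a type I enzyme known as a coactivator of nuclear receptors, was at 15.5, 5.96 and 10.9 CPM in the Nf1fl/fl;DhhCre group, against 16.5, 20.1 and 28.1 CPM in the other. The groups did not overlap, but the highest of one and the lowest of the other lay close together. The means were 10.8 ± 4.76 and 21.5 ± 5.92 CPM (SD, n = 3), and the log2 fold change was 1.11 (SE 0.37), which did not pass the threshold. It ranged from 0.76 without Nf1fl/fl;DhhCre replicate 2 to 1.43 without Nf1fl/fl;DhhCre replicate 1. Of the 8 members 2, Prmt2 and Prmt8, had groups that did not overlap, beside 42.3% of all genes tested.

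Prmt3, a cytosolic enzyme that methylates the ribosomal protein Rps2, was at 23.5, 31.8 and 29.1 CPM against 24.9, 21.7 and 37.4 CPM. Replicate 3 labelled dKO was the highest and replicate 2 labelled dKO the lowest of all 6, and the log2 fold change was -0.02 (SE 0.24). Carm1, which methylates histone H3 and splicing factors and acts as a transcriptional coactivator, was at 30.2, 38.0 and 35.4 CPM against 37.5, 31.1 and 35.3 CPM. Its means were 34.6 ± 3.95 and 34.6 ± 3.27 CPM (SD, n = 3), with a log2 fold change of 0.00 whose SE of 0.16 was the smallest of the 8. The Carm1 exons overlap those of Yipf2 on the opposite strand over 21.1% of their length, and whether reads were counted by strand was not given in the sources used here, so reads of this pair may not be separable. Yipf2 itself was at means of 7.23 and 6.85 CPM.

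Prmt6, a nuclear enzyme that methylates histone H3, was at 11.9, 8.52 and 12.3 CPM against 14.2, 10.9 and 14.5 CPM, with overlapping groups and a log2 fold change of 0.30 (SE 0.23). Its exons are shared over 23.4% of their length with an annotated antisense gene, C130013H08Rik, and those of Prmt8 over 8.6% with the antisense gene Gm42738; neither antisense gene has a row in the count data.

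Prmt5, the main type II enzyme, which methylates histones and the Sm proteins of the splicing machinery, was at 20.8, 21.6 and 16.998 CPM against 21.2, 22.6 and 24.2 CPM. The groups overlapped by a narrow margin, the means were 19.8 ± 2.47 and 22.7 ± 1.52 CPM (SD, n = 3), and the log2 fold change was 0.20 (SE 0.17). Prmt7, the type III enzyme, was at 5.62, 7.86 and 7.89 CPM against 5.66, 10.4 and 8.52 CPM, with overlapping groups and a log2 fold change of 0.17 (SE 0.30). The median log2 fold change of the 8 members was 0.19 beside 0.02 for all genes tested, and 7 of the 8 values were positive. That number fell to 5 with DESeq2 or with scaling by library size alone, under which Prmt1 and Carm1 had values just below 0.

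Levels of different genes were compared only per length, as CPM per kilobase of merged exons. In the Nf1fl/fl;DhhCre libraries Carm1 led at a mean of 7.12 (range 6.23 to 7.83), above Prmt5 at 5.01 (4.29 to 5.46) with no overlap. Prmt5 and Prmt3 overlapped, the latter at 4.69 (3.92 to 5.31). Prmt2 at 3.19, Prmt1 at 2.88, Prmt6 at 2.60 and Prmt8 at 2.20 CPM per kilobase followed, with ranges that overlapped those of their neighbours in this order, and Prmt7 was last at 1.16 (0.917 to 1.29). Prmt8 ranged from 0.815 to 4.22, thus from below the lowest Prmt7 library to within the range of Prmt3.

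In the libraries labelled dKO the order of these per-length levels opened with Prmt8 at a mean of 21.9 CPM per kilobase (14.3 to 34.6), clear of every other member. Carm1 at 7.14 (6.41 to 7.74), Prmt2 at 6.37 (4.88 to 8.30) and Prmt5 at 5.73 (5.36 to 6.12) came next, with Prmt2 overlapping both others. Prmt3 at 4.67, Prmt6 at 3.14, Prmt1 at 2.89 and Prmt7 at 1.34 CPM per kilobase closed the list. Prmt3 overlapped Prmt5 and Prmt6 overlapped Prmt1, while Prmt6 lay below Prmt3 and Prmt7 below Prmt1 in every library. With the longest transcript in place of merged exons as the length, Carm1 still led in the first group and Prmt8 in the second, while Prmt3 moved above Prmt5 in both groups and, in the second, Prmt2 above Carm1 and Prmt1 above Prmt6.

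As a share of the summed per-length level of the 8 genes, Prmt8 made up 2.96%, 14.0% and 5.39% in the Nf1fl/fl;DhhCre libraries and 33.4%, 36.3% and 49.0% in those labelled dKO. The summed level of the other 7 was 26.7, 25.9 and 27.3 CPM per kilobase against 28.5, 29.3 and 36.0. With Prmt8 included the sums were 27.6, 30.2 and 28.8 against 42.8, 46.0 and 70.7. The ratio of Prmt8 to Prmt1, per length, was 0.272, 1.87 and 0.458 in the first group and 6.97, 5.01 and 10.5 in the second.

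**Figure D2:**
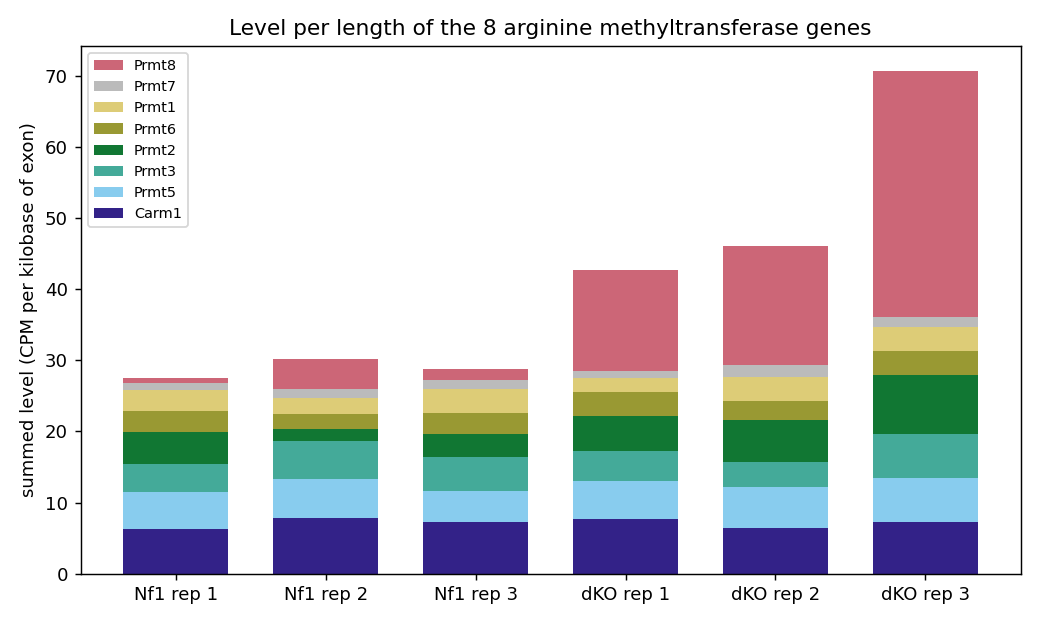
Per-length level of each member, stacked for every library, in CPM per kilobase of merged exons, with Nf1fl/fl;DhhCre libraries (Nf1) at left and those labelled dKO at right. Prmt8 fills 2.96% to 14.0% of the stack at left and 33.4% to 49.0% at right, and the rest of the stack sums to 25.9 to 27.3 and 28.5 to 36.0 CPM per kilobase.

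The neuronal setting of Prmt8 was described with 22 neuron markers, among them the neurofilament genes, the pan-neuronal tubulin gene Tubb3 and sensory ion channel genes. All 22 had groups that did not overlap, and 21 of 22 passed the threshold as higher in the libraries labelled dKO, the exception being the heat-gated channel gene Trpv1. Their summed level was 1433 to 2994 CPM in the Nf1fl/fl;DhhCre libraries and 7135 to 16011 CPM in those labelled dKO, and none was at 0. Their log2 fold changes ran from 1.10 to 3.09 with a median of 2.39, all below the 3.49 of Prmt8. The number called was 1 without Nf1fl/fl;DhhCre replicate 1, 9 without its replicate 3 and 17 to 22 without any other single library, 17 of them without replicate 2 labelled dKO, and all 22 values stayed positive each time. In bulk tissue, fewer cells of a type and less RNA per cell cannot be told apart.

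The mean log2 CPM of the 22 markers was 4.55, 5.65 and 4.38 in the Nf1fl/fl;DhhCre libraries and 6.67, 6.96 and 7.79 in those labelled dKO. Nf1fl/fl;DhhCre replicate 2, the library with the most Prmt8 in its group, also had the highest marker level there, and replicate 3 labelled dKO was highest for both in its group. Prmt8 minus this marker mean, on the log2 CPM scale, was -3.38, -2.12 and -2.29 in the first group and -1.38, -1.45 and -1.22 in the second. The groups did not overlap in this difference either. Its means were -2.60 ± 0.68 and -1.35 ± 0.12 (SD, n = 3), so that between the groups Prmt8 moved by 1.24 log2 units more than the marker mean did. The gap between the groups was 1.12 with the markers' median in place of the mean, and 0.85 to 1.48 with each library left out in turn. Prmt8 was chosen for its difference in these libraries, so a move larger than that of the markers follows in part from the choice, and nothing is read from this gap. The part of neuron content in the Prmt8 result was not tested.

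**Figure D3:**
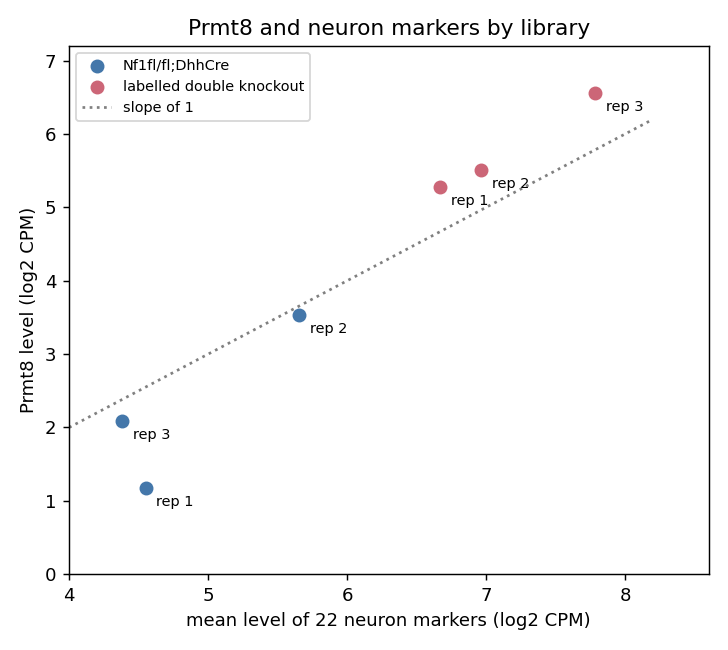
Prmt8 (log2 CPM) against the mean log2 CPM of 22 neuron markers, 1 point per library, coloured by group (Nf1 stands for Nf1fl/fl;DhhCre); the dotted line is a guide of slope 1. The markers span 4.38 to 5.65 in the first group and 6.67 to 7.79 in the libraries labelled dKO, and Prmt8 lies -3.38 to -2.12 from the marker mean in the first and -1.45 to -1.22 from it in the second.

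Some other cell type marker lists differed between the groups too. Myelinating Schwann cell markers summed to 855 to 1011 CPM in the Nf1fl/fl;DhhCre libraries and 2435 to 2901 CPM in those labelled dKO, with 6 of 8 called higher. Macrophage markers summed to 1135 to 2538 against 170 to 426 CPM, with 9 of 11 called lower, and fibroblast markers to 9176 to 9843 against 3377 to 5600 CPM, with 4 of 6 called lower. General Schwann cell markers summed to 1928 to 2037 and 2020 to 2887 CPM, with 2 of 9 called higher and 4 of 9 positive. Their sums overlapped between the groups, and their median log2 fold change was -0.05. Satellite glia markers summed to 937 to 1293 and 704 to 1220 CPM, with 1 of 4 called higher and 1 called lower. Endothelial markers summed to 130 to 167 and 106 to 223 CPM, and 0 of 5 were called in limma-voom, 0 in edgeR and 1 in DESeq2, with 2 at an unadjusted p below 0.05 in each. With 1 library left out in turn, 5 to 7 myelinating, 1 to 9 macrophage, 1 to 5 fibroblast and 1 to 2 general Schwann cell markers were called in these directions. Without Nf1fl/fl;DhhCre replicate 1 the macrophage and fibroblast calls numbered 1 and 1, and without replicate 2 labelled dKO 5 and 2. Satellite glia calls numbered 0 in both directions without Nf1fl/fl;DhhCre replicate 1. Without replicate 3 labelled dKO, 1 endothelial marker was called higher. The part of these differences in the member levels was not tested.

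The 5 genes most like Prmt8, by Pearson correlation of log2 CPM over the 6 libraries among 10221 genes with a mean log2 CPM of at least 3, were Snap91 (r = 0.9996), Stmn3 (0.9989), Ppef1 (0.9988), Stbd1 (0.9982) and Atcay (0.9979). Snap91, a clathrin assembly protein of synapses, was at 10.4, 31.2 and 15.5 CPM against 66.3, 78.8 and 130 CPM, with a log2 fold change of 2.34 (SE 0.42). Stmn3 encodes a neuronal stathmin and Atcay the brain protein caytaxin, with log2 fold changes of 2.11 and 2.74. Those of Ppef1 and Stbd1 were 2.77 and 1.54, the last being the lowest of the 5. Nf1fl/fl;DhhCre replicate 2 and replicate 3 labelled dKO were the highest of their groups for each of the 5, as for Prmt8. The genes most like Prmt1 were Gtf3c6 (r = 0.983), Nsun2 (0.971), Capza2 (0.956), Focad (0.955) and Eaf1 (0.952), with log2 fold changes of -0.08 to 0.07. Among the members, Prmt8 correlated with Prmt5 at 0.72, with Prmt2 at 0.55 and with Prmt1 at -0.07. The points of every such coefficient are the same 6 libraries, which fall into their 2 groups, and so the coefficients are descriptions only.

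The wider arginine methylation pathway was read from 55 tested genes in 8 lists. Of these 2 passed the threshold, Btg2 as lower and Ddah1 as higher in the libraries labelled dKO, beside 13.4% of all genes tested. The median log2 fold change of the 55 was -0.10 beside 0.02 for all genes. An unadjusted p below 0.05 was reached by 35.2% of all genes in limma-voom, 35.9% in edgeR's quasi-likelihood test and 38.8% in DESeq2. The counts of list members at that p, given below, stand beside these shares, and nothing is read from them.

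Among 10 binding partners of the enzymes, 1 was called. Btg2, an antiproliferative protein that binds Prmt1 and modulates its activity, was at 17.1, 18.8 and 15.3 CPM against 7.01, 5.59 and 6.01 CPM. Each library labelled dKO was below each Nf1fl/fl;DhhCre library, and the fitted difference was -1.46 log2 units (SE 0.21), with an adjusted p = 0.0106 in limma-voom. Of the 10 partners, 5 had positive values. At an unadjusted p below 0.05 there were 6 of the 10 in limma-voom, 6 in edgeR's quasi-likelihood test and 6 in DESeq2, above the shares of all genes. Among those not called, Coprs, which recruits Prmt5 to chromatin, had a log2 fold change of 1.09 (SE 0.32) with an adjusted p = 0.0509 in limma-voom, and passed in DESeq2 and under a CPM filter. Ncoa3, a nuclear receptor coactivator methylated by Carm1, had -0.49 (SE 0.13) with an adjusted p = 0.0425 in limma-voom, under the 2-fold threshold.

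Ddah1 degrades free asymmetric dimethylarginine, an inhibitor of nitric oxide synthases that is released when type I products are broken down. It was at 38.3, 47.6 and 46.8 CPM against 143, 129 and 153 CPM in the libraries labelled dKO. The groups lay far apart with little spread in either, differing by 1.68 log2 units (SE 0.14), with an adjusted p = 0.00596 in limma-voom. Both Btg2 and Ddah1 were called in all 12 alternative settings. Ddah1 was the 1 call among 4 tested genes of methylarginine clearance and nitric oxide synthesis. Of these 4, an unadjusted p below 0.05 was reached by 2 in limma-voom, 1 in edgeR and 1 in DESeq2. The neuronal synthase gene Nos1 had the highest value of the 4, 2.97 with an SE of 1.15 (adjusted p = 0.11, limma-voom), and was not called. It rested on 3, 67 and 3 counts against 29, 111 and 85, with overlapping groups. The highest count of each group was in replicate 2, the library with skeletal muscle transcripts given above. Whether muscle had a part in the Nos1 values was not tested. The log2 fold change of Nos1 was 1.93 in edgeR and 1.95 in DESeq2. It was 4.44 without Nf1fl/fl;DhhCre replicate 2 and 2.57 without replicate 2 labelled dKO, and Nos1 was not called in any of these. Agxt2 was at 0 counts in every library.

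None of the 10 genes listed under the S-adenosylmethionine cycle, which supplies the methyl donor and clears its product, was called. Their median log2 fold change was 0.23, with 6 of 10 positive. The largest was that of Ahcyl1 at 0.79 (SE 0.24), with an adjusted p = 0.0593 in limma-voom. Ahcyl1 was listed as a relative of the hydrolase gene Ahcy, and its part in the cycle was not tested. Ahcy itself was at 0.46 (SE 0.23), with overlapping groups and an adjusted p = 0.194 in limma-voom. Ahcyl1 was called without replicate 3 labelled dKO, at 1.04 with an adjusted p = 0.0247 in limma-voom, and DESeq2 gave it an adjusted p = 0.0111 under the 2-fold threshold. At an unadjusted p below 0.05 there were 4 in limma-voom, 3 in edgeR's quasi-likelihood test and 3 in DESeq2, of 10 each time, near the shares of all genes, and edgeR and DESeq2 called none.

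Substrates and readers of the mark gave no call. Of 15 RNA-binding proteins with arginine- and glycine-rich (RGG) stretches methylated by these enzymes, 13 had negative values. Their median was -0.25, beside 0.02 for all genes tested. The same 13 to 2 split was counted in edgeR, DESeq2 and library size scaling, which reuse the same libraries. It was 12 to 3 without Nf1fl/fl;DhhCre replicate 1, without its replicate 3 and without replicate 1 labelled dKO. Nothing is read from the split. The largest was that of the nucleolar methyltransferase Fbl at -0.57, and the RNA-binding protein Taf15 reached an adjusted p = 0.0392 (limma-voom) at a log2 fold change of -0.50, under the 2-fold threshold. At an unadjusted p below 0.05 there were 3, 3 and 4 of the 15 in limma-voom, edgeR and DESeq2, and 6 with scaling by library size alone. Of 5 substrates of Prmt5 from the splicing machinery, the Sm and Sm-like proteins Snrpb, Snrpd1, Snrpd3 and Lsm4 and the Cajal body protein Coil, none was called, Snrpb having the largest value at -0.45, with 1, 0 and 1 at an unadjusted p below 0.05. Of 5 Tudor-domain readers none was called and 2, 2 and 2 had an unadjusted p below 0.05. Tdrkh, a mitochondrial Tudor protein, was at 25.04, 21.5 and 25.6 CPM against 44.2, 44.2 and 45.3 CPM. The groups did not overlap, and the difference of 0.90 log2 units (SE 0.14) had an adjusted p = 0.0115 in limma-voom but stayed under the 2-fold threshold.

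The remaining methyltransferases and the enzymes that compete for arginine gave no call either. Prmt10, an earlier symbol of Prmt9, had a log2 fold change of 0.18 (SE 0.24), and none of the 3 tested genes Prmt10, Ndufaf7 and Mettl23 reached an unadjusted p below 0.05 in any of the 3 tools. Of 3 tested genes for deiminases, which convert arginine to citrulline, and Jmjd6, 1 had an unadjusted p below 0.05 in each tool. This was Padi2, at 85.0, 82.5 and 91.2 CPM against 161, 136 and 147 CPM, a difference of 0.78 log2 units (SE 0.12) with an adjusted p = 0.0115 in limma-voom. The groups were clearly separate but differed by less than 2-fold. The part of the cell type differences given above in these pathway values was not tested.

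**Figure D4:**
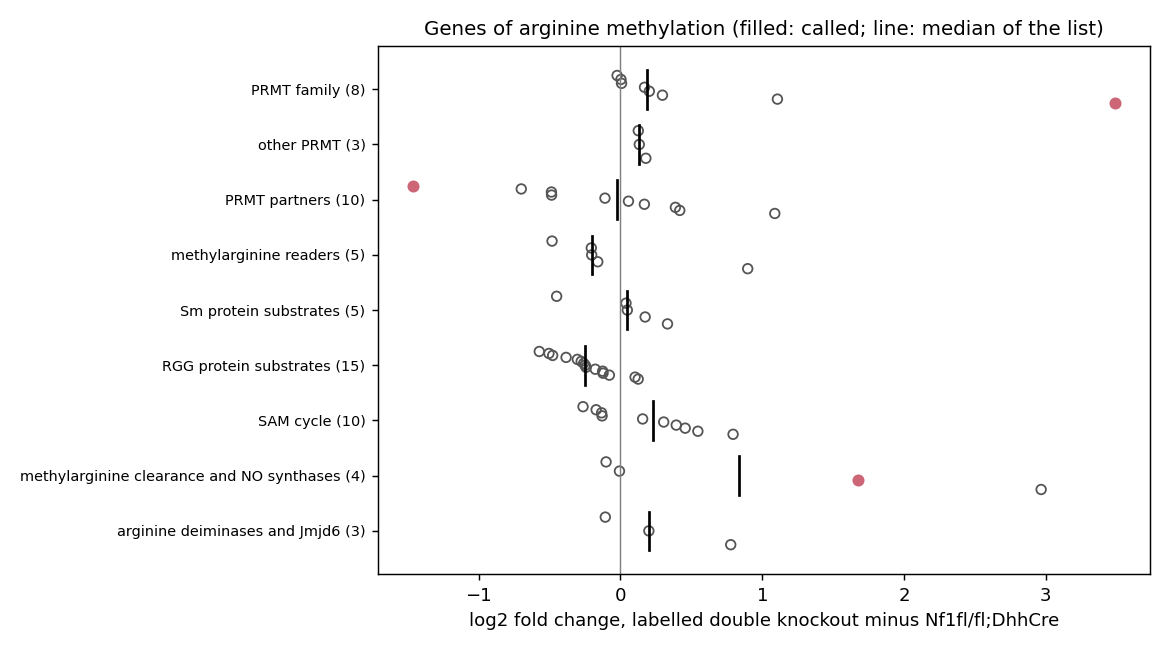
Log2 fold change (libraries labelled dKO minus Nf1fl/fl;DhhCre) of each tested pathway gene, 1 row per list, with filled points for genes called and a vertical bar at the median of the list. The 15 RGG substrates have a median of -0.25, and the 2 filled points among the lists other than the family are Btg2 at -1.46 and Ddah1 at 1.68.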

How the data were processed

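RNA was extracted from mouse nerve tissue, amplified (NuGEN Ovation v2), made into libraries with Nextera XT and sequenced in paired-end mode. The authors aligned the reads to mm10 with TopHat and deposited raw gene counts from featureCounts, 1 table per library; annotation, strandedness and treatment of multiply mapped reads were not given in the sources used here. Gene symbols are those of the deposited tables. The 3 libraries per group came from the genotype label. The labels and the deposited tables name different mice for some libraries, with the genotype unaffected. Nothing said that libraries of a group were separate mice beyond their names, so errors describe the spread between these libraries.

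Counts were scaled by TMM, filtered with filterByExpr (minimum count 10) and tested with limma-voom (limma 3.58.1, edgeR 4.0.16, R 4.3.3), the test stated by the study, with Benjamini-Hochberg adjustment over 15652 genes. DESeq2 1.42.0 and the quasi-likelihood test of edgeR served as alternatives, beside other scalings and filters, and leaving out each library. Log2 CPM used a prior count of 0.5. Scripts were tested before use on simulated counts with the same dispersion for every gene, which checks the code and not the calls in these libraries. Gene positions, lengths and overlaps came from GENCODE on GRCm38, and promoter sequences from RefSeq on GRCm38.p6; 7 of 8 members had one. The 8 genes and all lists were chosen with earlier results of these data known. Named genes are the 8, all called genes of the pathway lists or the gene with the largest change where none was called, and the 5 most like Prmt8 and Prmt1; Coprs, Ncoa3, Nos1, Agxt2, Taf15, Trpv1, Yipf2, Xist and Ddx3y were added after their values were seen.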

Additional observations from a re-analysis of the deposited data

How the results depend on the processing

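Across all genes 2096 were called, and 2087 to 2907 under other tests, scalings and filters, apart from 3017 at an adjusted p below 0.05 with no fold threshold. Leaving out each library in turn gave 362 to 2285, with 362 without Nf1fl/fl;DhhCre replicate 1, 1033 without its replicate 3 and 1018 without replicate 2 labelled dKO. The number of the 8 members called ranged from 0 to 1 with a library left out, being 0 without Nf1fl/fl;DhhCre replicate 1 or replicate 3. The log2 fold change of Prmt8 was 3.30 to 3.49 over settings that kept all libraries and 3.0 to 4.21 with a library left out. The pathway lists held 2 called genes, 6 with no fold threshold, and 2 to 3 with a library left out. Values of Prmt1, Prmt3, Carm1 and Prmt7 near 0 changed sign in 7, 4, 7 and 1 of the 12 settings, each by less than the spread between replicates. The causes were not tested. Prmt8 rested on as few as 32 counts in a library. No paired analysis was possible because the labels pair no libraries across the groups, and the replicate numbers used here mark no pairing.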
